A study of Homo sapiens with 24 samples.

Results

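MALAT1, NEAT1, KCNQ1OT1, TUG1, MIAT and PVT1 are long noncoding RNAs that are held in the nucleus in whole or in part. They were found in the deposited counts by their NCBI Gene identifiers, and all 6 were present among the 28395 identifiers of the tables. The 6 were chosen by name with results of these data in view, the response to panobinostat in MM1.S cells among them, so their values against vehicle in panobinostat-treated MM1.S are given as a description with no test. MM1.S (p53 wild type) and JJN3 (p53 null) are established lines of human multiple myeloma, a cancer of plasma cells. Each line received CX-5461 at 500 nM with panobinostat at 50 nM, panobinostat at 50 nM, CX-5461 at 500 nM, or vehicle, for 24 h in every case, with 3 libraries per group and 24 in all. CX-5461 inhibits RNA polymerase I, the enzyme that transcribes ribosomal RNA genes, and panobinostat inhibits histone deacetylases. The series asked how the pair acts on transcription in cells with and without p53. Each line is 1 cell line, so an effect of p53 cannot be told apart from anything else that differs between these lines.

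MALAT1 is a component of nuclear speckles, where splicing factors are stored. NEAT1, made from a neighbouring gene, is the scaffold of paraspeckles, nuclear bodies that hold RNA-binding proteins. KCNQ1OT1 is an imprinted transcript antisense to KCNQ1 that silences neighbouring genes on the chromosome it is made from. TUG1 and MIAT are spliced transcripts linked to gene silencing and to splicing factors, and PVT1 is made from the gene next to the transcription factor gene MYC and is known as a p53 target.

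The libraries were polyA-selected and read near 3′ ends, while MALAT1 and the long form of NEAT1 are known to end in a triple helix and not in a poly(A) tail. Runs of A inside these RNAs are therefore shown, because polyA selection can hold an RNA by such a run. Each sequence is the longest A run of the longest annotated transcript (GENCODE, build GRCh38, sense strand), in capitals, with 24 bases on each side.
MALAT1: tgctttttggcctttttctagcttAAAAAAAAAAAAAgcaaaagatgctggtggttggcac
NEAT1: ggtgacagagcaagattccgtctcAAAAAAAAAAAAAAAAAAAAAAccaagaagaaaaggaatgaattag
KCNQ1OT1: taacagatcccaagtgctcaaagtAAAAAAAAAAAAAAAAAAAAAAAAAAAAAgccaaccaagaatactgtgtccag
TUG1: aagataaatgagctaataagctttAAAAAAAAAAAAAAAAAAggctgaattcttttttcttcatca
MIAT: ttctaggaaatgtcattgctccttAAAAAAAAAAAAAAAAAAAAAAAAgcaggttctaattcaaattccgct
The run was 13 bases long in MALAT1, 22 in NEAT1, 29 in KCNQ1OT1, 18 in TUG1 and 24 in MIAT. In MALAT1 it ended 359 bases before the annotated 3′ end of a transcript of 8708 bases, and in NEAT1 it ended 4676 bases before the end of one of 22743 bases. MALAT1, NEAT1 and KCNQ1OT1 lie on chromosome 11, and TUG1 and MIAT on chromosome 22. Which end or run the reads came from was not tested, since the counts give 1 value per gene.

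Total counts per library lay between 4751893 and 7305069. The deposited raw counts are given below as CPM (counts relative to library size) on library sizes scaled by TMM, and tests are the quasi-likelihood F test of edgeR with Benjamini-Hochberg adjustment over all genes tested, called at an adjusted p under 0.05. Whether the 3 libraries of a group stem from separate cultures is not stated in the labels, so the p-values reflect variation among libraries that may be technical only. Statements on whether groups overlap describe these libraries only. The share of all genes whose groups separate in this way was not counted. All 10 plasma cell markers had counts in every group, and their summed level was 978.8 to 9725 CPM per library. That sum was 978.8 to 1295 CPM in MM1.S libraries with panobinostat and 7108 to 9725 CPM in those without. In JJN3, group means were at most 0.18 CPM for CD38 and 4.01 to 5.78 CPM for SLAMF7. These genes averaged 5.23 and 1157 CPM in MM1.S with vehicle. Summed markers of T cells, monocytes and mature B cells were at most 8.09 CPM in any library. Those of fibroblasts reached 23.9 CPM in MM1.S with both drugs. In that group COL1A1 averaged 16.8 CPM, PDGFRB 2.44, COL1A2 0.06 and LUM 0. COL1A1 averaged 13.2 CPM in MM1.S with panobinostat and 0.24 CPM with vehicle. The part of these marker levels in the results below was not tested.

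MALAT1 was the member with the largest response to panobinostat in MM1.S. It had 69684, 62629 and 81826 CPM in MM1.S libraries with both drugs and 7002, 7193 and 7079 CPM with CX-5461 alone. These groups did not overlap, and MALAT1 was higher by 3.34 ± 0.12 on the log2 scale (SE; edgeR, adjusted p = 7.67e-17), 10.1-fold. With panobinostat alone it had 56627, 57852 and 71461 CPM, against 4746, 6358 and 6202 CPM with vehicle, a described log2 fold change of 3.43 ± 0.12. Both panobinostat groups therefore lay above every other MM1.S library. MALAT1 alone took 7.57% ± 0.98 of all counts in MM1.S with both drugs and 6.44% ± 0.98 with panobinostat, against 0.542% ± 0.090 with vehicle (SD, n = 3 each). In bulk RNA, fewer cells of a kind and less RNA per cell cannot be told apart.

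**Figure D1:**
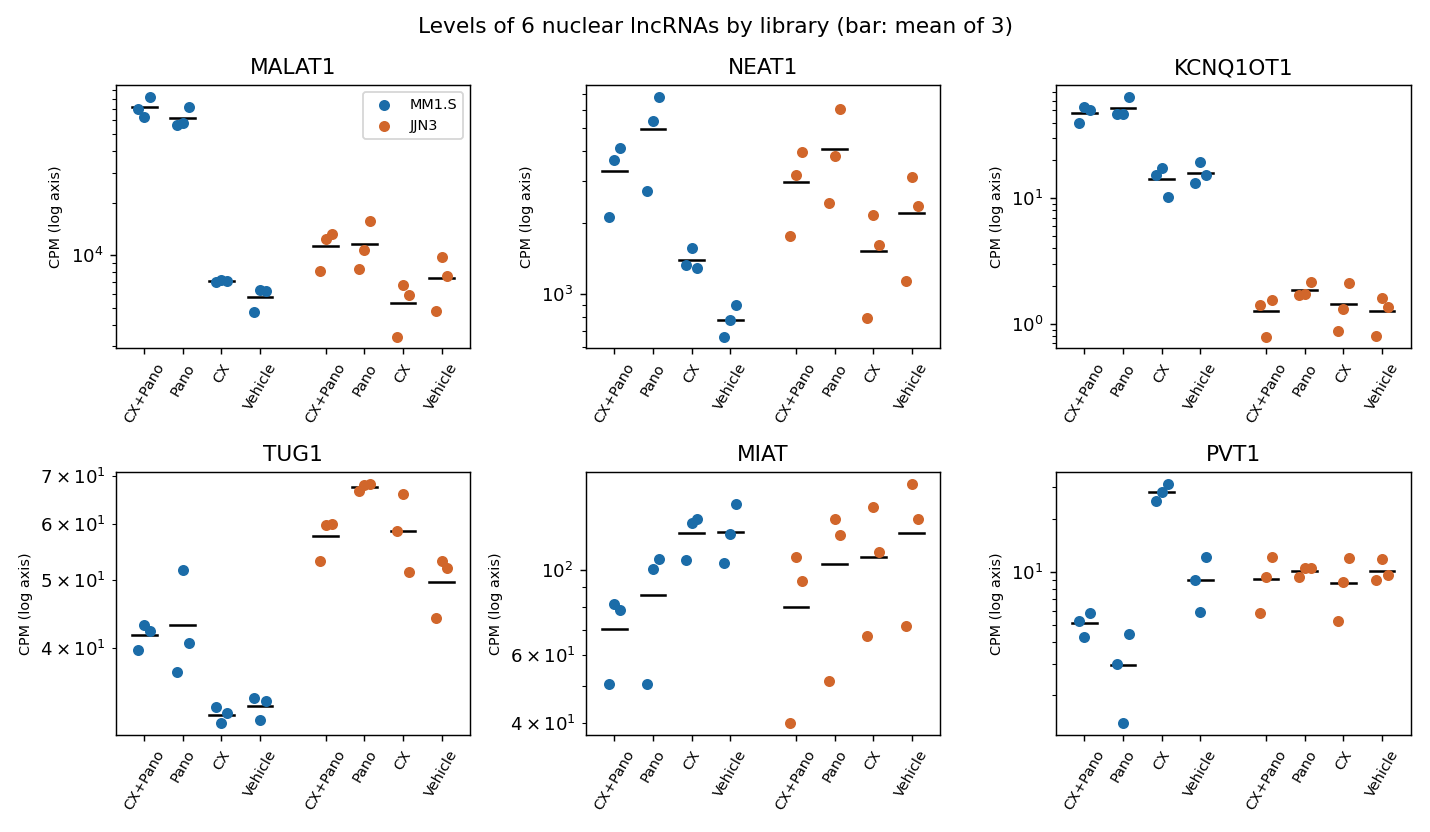
CPM of each lncRNA (log axis) in every library of MM1.S (blue) and JJN3 (orange), by treatment, with the mean of 3 as a bar. MALAT1, NEAT1, KCNQ1OT1 and TUG1 of MM1.S lie higher in both panobinostat groups than in the others, and PVT1 of MM1.S is highest with CX-5461 alone.

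All 6 members were called when panobinostat was added to CX-5461 in MM1.S. The means compared come from neither the vehicle libraries nor those with panobinostat alone, but all 12 libraries of the line entered the fit and set the spread behind the p-values. The comparison also concerns the same drug in the same line, whose effect was known when the members were chosen. Its p-values, that of MALAT1 above included, do not allow for that choice, so these calls are no independent evidence of a response. In that comparison, 69.8% of 12030 genes were called, 35.9% higher and 33.9% lower, so 6 calls of 6 stand against a background where most genes were called. The 4 that were higher were MALAT1, NEAT1, KCNQ1OT1 and TUG1, and the 2 that were lower were MIAT and PVT1.

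NEAT1, the paraspeckle scaffold, had 2120, 3671 and 4129 CPM with both drugs and 1335, 1568 and 1296 CPM with CX-5461. The groups did not overlap, and the log2 fold change was 1.25 ± 0.35 (edgeR, adjusted p = 0.0119). With panobinostat alone it had 2717, 5379 and 6779 CPM, against 665, 777 and 904 CPM with vehicle, a described log2 fold change of 2.67 ± 0.37. The lowest library of either panobinostat group was replicate 1.

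KCNQ1OT1, the imprinted antisense RNA, had 39.9, 53.6 and 50.4 CPM in MM1.S with both drugs and 15.3, 17.4 and 10.3 CPM with CX-5461. These groups did not overlap either (log2 fold change 1.75 ± 0.18; edgeR, adjusted p = 7.05e-09). Its described change with panobinostat against vehicle was 1.73 ± 0.18. KCNQ1, the potassium channel gene on the other strand, was lower by the same test (log2 fold change -1.82 ± 0.19, adjusted p = 5.99e-09). Whether the counting used strand is not given in the sources used here, so reads of this pair cannot be told apart where the genes overlap. Of 8 listed genes of the imprinted domain, KCNQ1 included, 3 were tested. CD81, a cell surface protein gene, was higher (3.77 ± 0.51, edgeR adjusted p = 3.94e-07) and TSSC4 lower (-0.31 ± 0.13, 0.0346).

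TUG1 moved less. It had 39.7, 43.2 and 42.3 CPM in MM1.S with both drugs and 33.0, 31.3 and 32.4 CPM with CX-5461, again with no overlap. The log2 fold change was 0.38 ± 0.12 (edgeR, adjusted p = 0.00849), and panobinostat against vehicle gave a described 0.39 ± 0.13.

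MIAT and PVT1 went the other way. MIAT had 50.6, 81.4 and 78.8 CPM with both drugs and 106.2, 132.1 and 135.6 CPM with CX-5461, a log2 fold change of -0.82 ± 0.28 (edgeR, adjusted p = 0.0274). The groups did not overlap, but the call was lost without CX-5461 replicate 2 (adjusted p = 0.0703), without CX-5461 replicate 3 (0.0801) and without replicate 1 of both drugs (0.0592). It was also lost when library sizes were not scaled (adjusted p = 0.0646). With the replicate number in the fit as a block, MIAT was called (-0.84 ± 0.11, edgeR adjusted p = 4.53e-07), beside 71.6% of all genes. Same-numbered MM1.S libraries did not pair by the rule given under processing, however.

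PVT1 had 5.25, 4.28 and 5.84 CPM with both drugs and 25.1, 28.2 and 31.5 CPM with CX-5461 in MM1.S. Every library with both drugs lay below every library with CX-5461, with a log2 fold change of -2.46 ± 0.24 (edgeR, adjusted p = 3.04e-09). With panobinostat alone it had 2.99, 1.39 and 4.47 CPM, against 9.03, 5.89 and 12.1 CPM with vehicle, a described change of -1.63 ± 0.31. These levels rest on 8 to 24 counts per library with panobinostat alone.

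With CX-5461 alone, 1 of 6 members was called in MM1.S, PVT1. Of all genes, 16.7% were called there, 9.68% higher and 7.06% lower. PVT1 rose by 1.63 ± 0.23 on the log2 scale against vehicle (edgeR, adjusted p = 1.2e-05), with the CX-5461 libraries above all vehicle libraries. MALAT1 (0.30 ± 0.11, adjusted p = 0.0708) and NEAT1 (0.84 ± 0.35, adjusted p = 0.150) did not pass. Each of their CX-5461 libraries exceeded each vehicle library, which is a description only. MALAT1 passed with no filter on low counts (0.29, edgeR adjusted p = 0.0195). KCNQ1OT1, TUG1 and MIAT lay between -0.15 and -0.01 on the log2 scale. CDKN1A, the cell-cycle inhibitor induced by p53, averaged 730 ± 47.1 CPM with CX-5461 and 45.8 ± 6.56 CPM with vehicle (SD, n = 3 each).

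MYC is the only tested gene among the 5 on each side of PVT1, and it moved against PVT1 under CX-5461. MYC averaged 20.4 ± 4.09 CPM in MM1.S with CX-5461 and 42.3 ± 9.68 CPM with vehicle (SD, n = 3 each), a log2 fold change of -1.05 ± 0.18 (edgeR, adjusted p = 1.64e-04). With panobinostat added to CX-5461 both genes were lower, MYC by -3.60 ± 0.28 on the log2 scale (adjusted p = 2.86e-11).

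**Figure D2:**
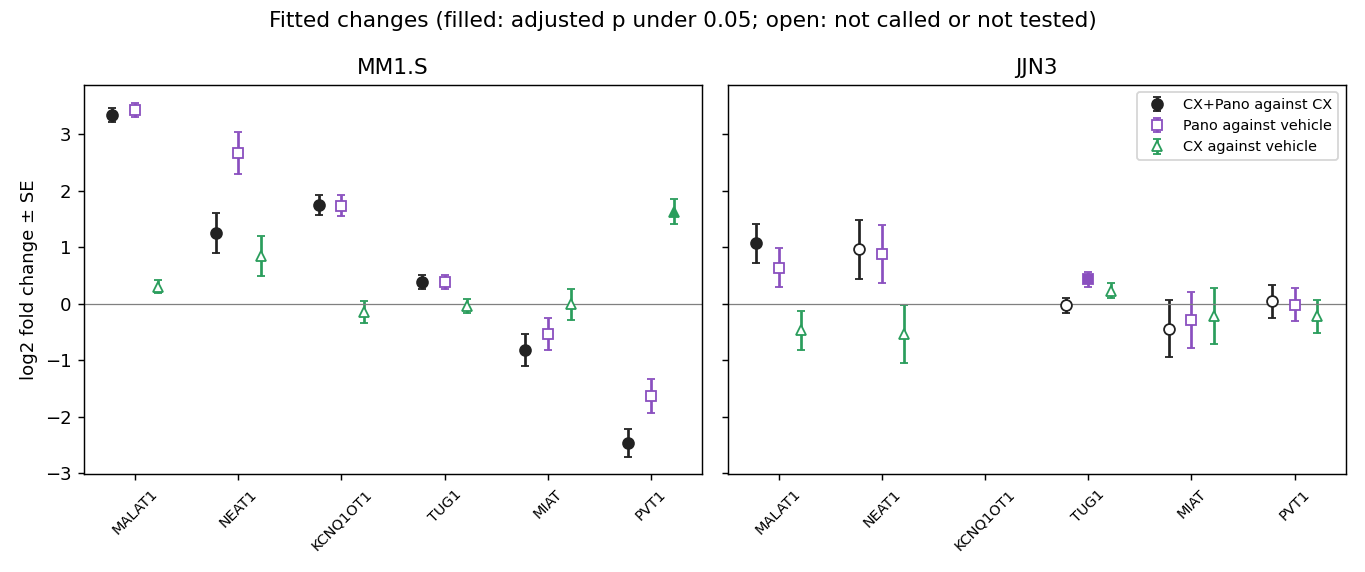
Log2 fold change ± SE (y axis) of each lncRNA for panobinostat added to CX-5461, panobinostat against vehicle and CX-5461 against vehicle, in MM1.S and JJN3. Filled symbols passed the test, and panobinostat against vehicle in MM1.S is open because it was not tested; MALAT1 reached 3.34 in MM1.S and 1.07 in JJN3 when panobinostat was added to CX-5461.

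Adding CX-5461 to panobinostat in MM1.S called none of the 6 members, beside 4.08% of all genes (edgeR; 1 member, PVT1, at an unadjusted p under 0.05; none by DESeq2 or limma-voom). PVT1 was at 0.80 ± 0.33 (adjusted p = 0.183) and NEAT1 at -0.58 ± 0.35 (adjusted p = 0.429). The departure from additivity, that is, the effect of both drugs minus the sum of the single effects, also called none, beside 5.52% of all genes (edgeR; 1 member, NEAT1, at an unadjusted p under 0.05; 1 by DESeq2 and none by limma-voom). Both comparisons use the MM1.S libraries with panobinostat alone, whose response was known when the members were chosen. Nothing is therefore read from these counts or p-values. As a description, NEAT1 was at -1.42 ± 0.49 on the log2 scale for the departure from additivity.

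In JJN3, libraries with the same replicate number deviated together, and replicate 1 was the lowest of its 3 in all 4 treatments for MALAT1, NEAT1, MIAT and PVT1. Of 11411 genes tested in JJN3, 6.87% showed that pattern. MIAT with both drugs, for example, had 39.99 CPM in replicate 1 and 107.6 and 93.3 CPM in the other libraries. In MM1.S, MIAT was lowest in replicate 1 in all 4 treatments, beside 2.66% of 12030 genes. MALAT1 and NEAT1 were lowest in replicate 1 in 3 of 4, and the share of all genes with that pattern was not counted. What sets the libraries numbered 1 apart was not tested. Results in JJN3 are therefore given without and, where it changes a call, with the replicate number as a block. Fits with 1 library left out were run without the block only.

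**Figure D3:**
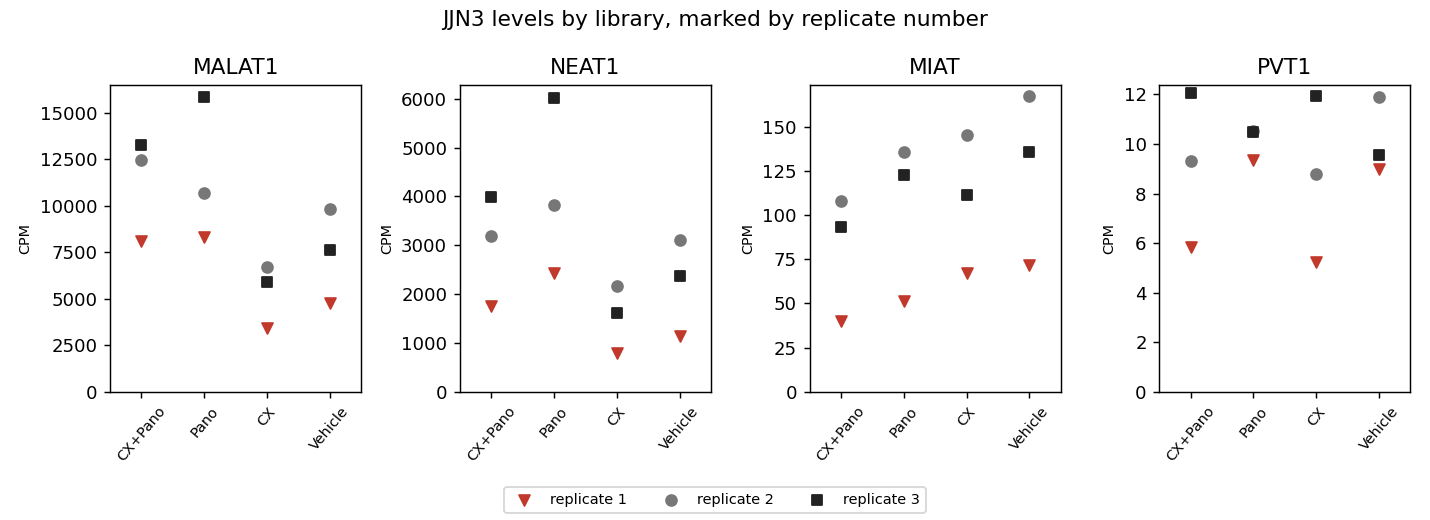
CPM of 4 lncRNAs (y axis) in the 12 JJN3 libraries by treatment, marked by replicate number. Replicate 1 is the lowest of each treatment in every panel.

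Panobinostat against vehicle in JJN3 called 1 of 5 members tested, TUG1, beside 26% of all genes, 15% higher and 10.9% lower. TUG1 had 66.6, 67.9 and 68.3 CPM with panobinostat and 44.1, 53.1 and 51.9 CPM with vehicle, with no overlap and a log2 fold change of 0.43 ± 0.13 (edgeR, adjusted p = 0.0242). That call was lost without vehicle replicate 1 (adjusted p = 0.116) and without panobinostat replicate 1 (0.0650), replicate 2 (0.0595) or replicate 3 (0.0665). MALAT1 had 8318, 10686 and 15886 CPM with panobinostat and 4763, 9822 and 7625 CPM with vehicle, which overlapped, a log2 fold change of 0.64 ± 0.34 (adjusted p = 0.202). NEAT1 was at 0.88 ± 0.52 (adjusted p = 0.254) and MIAT at -0.29 ± 0.50 (adjusted p = 0.718). With no filter on low counts, MALAT1 (0.61, edgeR adjusted p = 1.58e-04) and NEAT1 (0.86, 4.47e-08) were called, beside 18% of all genes. TUG1 was not called in that fit (0.40, adjusted p = 0.0616), nor without the 4 JJN3 libraries numbered 1 (0.35, 0.229).

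With the replicate number as a block, 4 of the 5 were called in that comparison, beside 41.9% of all genes. MALAT1 was then higher by 0.66 ± 0.17 (edgeR, adjusted p = 0.0218), NEAT1 by 0.91 ± 0.23 (0.0201) and TUG1 by 0.43 ± 0.11 (0.00171), and MIAT was lower (-0.31 ± 0.10, 0.0118). PVT1 was at 0.01 ± 0.21 in the same fit.

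When panobinostat was added to CX-5461 in JJN3, MALAT1 was called and the other 4 tested were not, beside 34.4% of all genes. MALAT1 had 8135, 12454 and 13282 CPM with both drugs and 3411, 6717 and 5884 CPM with CX-5461. Every library with both drugs lay above every CX-5461 library, and the log2 fold change was 1.07 ± 0.35 (edgeR, adjusted p = 0.0327). The call was lost without any 1 of 5 libraries, namely CX-5461 replicate 1 (adjusted p = 0.0808) or 3 (0.0687), panobinostat replicate 2 (0.0535), or both drugs replicate 2 (0.0831) or 3 (0.1001). With the block, 49% of all genes were called and so were MALAT1 (1.10 ± 0.18, adjusted p = 0.00178), NEAT1 (0.99 ± 0.23, 0.0120) and MIAT (-0.47, adjusted p = 2.19e-04). With no filter on low counts, NEAT1 (0.92, edgeR adjusted p = 1.95e-09) and MIAT (-0.48, 0.00818) were called too, beside 24.4% of all genes.

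Both drugs against vehicle in JJN3 called none of the 5 members without the block, beside 39.2% of all genes (edgeR; none at an unadjusted p under 0.05, and none by DESeq2 or limma-voom). With it, MALAT1 (0.62 ± 0.17, adjusted p = 0.0210) and MIAT (-0.67 ± 0.10, adjusted p = 1.29e-06) were called, beside 53.5% of all genes. With no filter on low counts, MALAT1 (0.56, edgeR adjusted p = 3.99e-04), NEAT1 (0.39, 0.0235) and MIAT (-0.69, 4.51e-05) were called, beside 27.4%. Both drugs against panobinostat called no member, beside 0.903% of all genes (none at an unadjusted p under 0.05 or by the other tools). The block called MIAT alone (-0.36 ± 0.10, edgeR adjusted p = 0.0158), beside 12.3%. The fit with no filter called NEAT1 alone (-0.47, edgeR adjusted p = 0.0369), beside 2.34%. CX-5461 against vehicle and the departure from additivity called no member and 0% of all genes by edgeR without the block, with 633 and 564 genes at an unadjusted p under 0.05. DESeq2 called 19 genes in each and limma-voom none, no member among them. TUG1 was the only member at an unadjusted p under 0.05 in the edgeR fit without the block, for additivity. With the block, these comparisons called 1.38% and 0.92% of all genes and again no member.

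KCNQ1OT1 had 4 to 13 counts per JJN3 library and was not tested within that line. It averaged 1.26 ± 0.42 CPM in JJN3 with vehicle and 16.0 ± 3.16 CPM in MM1.S with vehicle (SD, n = 3 each). It passed the filter of the 24-library fit through MM1.S alone, so its differences between the lines are described with no test, here -3.61 ± 0.30 on the log2 scale. Between the vehicle groups 63.7% of 12872 genes were called, and so were 2 of the 5 members that passed the filter in both lines. NEAT1 was higher in JJN3 (1.495 ± 0.47, adjusted p = 0.0100), with 1136, 3110 and 2366 CPM in JJN3 and 665, 777 and 904 CPM in MM1.S. TUG1 was higher too (0.59 ± 0.13, adjusted p = 1.95e-04), and MALAT1, MIAT and PVT1 did not pass. MALAT1 (0.36 ± 0.28, adjusted p = 0.273) did pass with no filter on low counts (0.43, adjusted p = 0.00100) and without the 4 JJN3 libraries numbered 1 (0.60, 0.00183).

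The response to panobinostat on top of CX-5461 differed between the lines for 2 of the 5 members that passed the filter in both, beside 32.3% of all genes. JJN3 minus MM1.S was -2.25 ± 0.40 for MALAT1 (edgeR, adjusted p = 2.83e-04) and 2.51 ± 0.41 for PVT1 (1.65e-05). The members were chosen with the MM1.S response to panobinostat known, and the p-values of this contrast do not allow for that. For KCNQ1OT1 the difference was -1.91 ± 0.49, given as a description. The fold change of MALAT1 was thus smaller in JJN3, and PVT1, which fell in MM1.S, was at 0.04 ± 0.29 in JJN3. For NEAT1 the difference was -0.27 ± 0.64 (adjusted p = 0.801), which is wide. TUG1 was at -0.40 ± 0.18 (adjusted p = 0.0826), and it was called when any 1 of 10 libraries was left out and by DESeq2 (-0.46, 0.0320). With the replicate number as a block in both lines, 4 of the 5 were called, beside 40.3% of all genes, with TUG1 (-0.40 ± 0.16, edgeR adjusted p = 0.0416) and MIAT (0.38 ± 0.16, 0.0490) added. The effect of CX-5461 differed for PVT1 (-1.85 ± 0.39, adjusted p = 0.00769), beside 1.32% of all genes. With the block NEAT1 was called too (-1.40 ± 0.34, adjusted p = 0.0357), beside 4.52%, and with no filter on low counts NEAT1 and MALAT1 were (-1.39 and -0.79). PVT1 had 5.24, 8.81 and 11.96 CPM in JJN3 with CX-5461 and 8.98, 11.9 and 9.55 CPM with vehicle, which overlapped.

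Over the 12 libraries of a line, log2 CPM of MALAT1 and NEAT1 correlated at r = 0.900 in MM1.S and 0.970 in JJN3, a description in which the points share treatments and replicate numbers. Among 7409 candidate genes, the pattern most like that of MALAT1 was APBB3 (r = 0.953 in MM1.S and 0.980 in JJN3), followed by MAPK8IP3 (0.981 and 0.930) and UBR2 (0.945 and 0.914). APBB3 also came first for NEAT1 (0.911 and 0.969). ANKRD10 (0.940 and 0.958) came first for MIAT, SATB1 (0.773 and 0.942) for TUG1 and DGCR8 (0.789 and 0.802) for PVT1.

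Protein partners of these RNAs were followed in lists. Adding panobinostat to CX-5461 in MM1.S called 5 of 33 paraspeckle protein genes higher and 20 lower, beside 35.9% of all genes higher and 33.9% lower. The median log2 fold change of the list was -0.45, against 0.04 over all genes. CELF6 (3.20 ± 0.48, edgeR adjusted p = 1.89e-06) and AHDC1 (2.59 ± 0.23, 2.62e-10) were higher, and RBM3, a cold-inducible RNA-binding protein gene, was lower (-1.83 ± 0.12, 6.45e-13). Of 22 speckle and splicing factor genes none was higher and 15 were lower, with a median of -0.67. Among these were the splicing factor genes SRSF7 (-2.04 ± 0.12, adjusted p = 5.57e-14), U2AF2 (-1.79 ± 0.16, 1.12e-09) and SRSF3 (-1.55 ± 0.10, 1.36e-12).

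Of 16 genes of nuclear RNA export, decay and 3′ end processing, 6 were higher and 8 lower in that comparison, beside the same 35.9% and 33.9% of all genes, with ALYREF, an mRNA export adaptor gene, at -2.16 ± 0.14 (edgeR, adjusted p = 7.26e-13). Of 25 other long noncoding RNAs, 11 were higher and 11 lower, beside that background. HOTAIRM1 (3.24 ± 0.27, adjusted p = 1.03e-10) was among the higher and PINCR (-4.32 ± 0.58, 5.94e-07) among the lower. In JJN3 the same comparison called 1 of 31 paraspeckle genes higher and 14 lower, and none of 22 speckle genes higher and 10 lower, beside 18.8% of all genes higher and 15.6% lower. Panobinostat against vehicle in JJN3 called 1 and 10 of the paraspeckle genes, and 0 and 7 of the speckle genes, higher and lower, beside 15% and 10.9% of all genes.

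**Figure D4:**
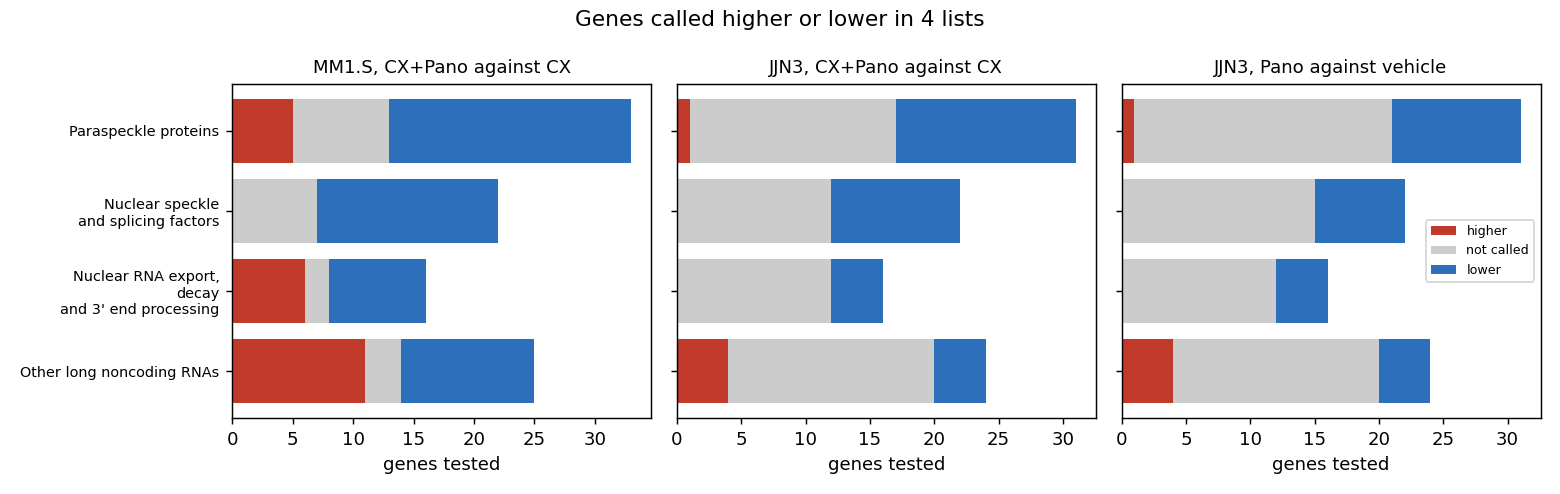
Number of genes tested (x axis) that were called higher (red), lower (blue) or neither (grey) in 4 lists of partner genes and other lncRNAs, in 3 comparisons. In MM1.S, 20 of 33 paraspeckle genes and 15 of 22 speckle genes were lower.

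MALAT1 and NEAT1 are neighbours on chromosome 11 and rose together in MM1.S. Of the 6 tested genes around NEAT1, 2 were higher and 2 lower when panobinostat was added to CX-5461 in MM1.S. That is near the 35.9% of all genes higher and 33.9% lower, and MALAT1 itself is 1 of the 2 higher. FAUP4, a pseudogene that lies there, was at 2.82 ± 0.17 (edgeR, adjusted p = 1.64e-13), a value that is uncertain because its reads may be shared with a near-identical gene. SLC25A45 was lower (-1.66 ± 0.16, adjusted p = 8.54e-10).

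The promoter of MALAT1 is shown because MALAT1 responded most. RefSeq (GRCh38.p14) lists 2 starts, and the 300-base window around the upstream one, chr11:65497488-65497787 on the plus strand, reads as follows, with matches to GGGCGG on either strand in capitals.
MALAT1 promoter: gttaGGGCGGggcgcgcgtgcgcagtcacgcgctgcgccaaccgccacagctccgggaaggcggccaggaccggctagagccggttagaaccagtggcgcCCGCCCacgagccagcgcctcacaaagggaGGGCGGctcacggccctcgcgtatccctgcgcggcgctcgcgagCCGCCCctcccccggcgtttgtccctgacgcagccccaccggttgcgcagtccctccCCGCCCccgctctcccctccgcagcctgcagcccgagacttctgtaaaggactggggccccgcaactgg
It held 5 copies of GGGCGG, a GC box, which 45% of 35116 promoters hold. The window of the downstream start held 1 TATAAA, which 11.5% of promoters hold, and no GGGCGG. The TUG1 window held 4 GGGCGG, 1 CACGTG (7.26% of promoters) and 2 CCAAT (34.6%), and the MIAT window none of the 6 motifs searched. TGANTCA (7.71%) and TGACGTCA (1.85%) were in none of these windows. A match is a description of letters and no evidence of binding.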

How the data were processed

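Counts are whole numbers of reads per gene, deposited by the authors as 1 table per line with no normalisation (from the values). HISAT2 2.2.1, limma 3.50.0, featureCounts 2.0.1, GRCh37 and hg19 are named in the submitters' processing notes, with no roles. No annotation or strand setting is given in the sources used here. Symbols came from a RefSeq gene table, which matched 27745 of 28395 identifiers.

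The members and lists were chosen with earlier results of these data known. Named genes are the 6 members, the 3 genes most like each by the smaller r of the lines, and at most 3 called genes of each list by size of change. Counts were fitted with edgeR 4.0.16 (R 4.3.3; TMM, filterByExpr, robust quasi-likelihood F test, two-sided), on 12 libraries per line (8 residual degrees of freedom) or all 24 for contrasts between lines. DESeq2 1.42.0 and limma-voom 3.58.1 were alternatives, beside other scalings, filters, left-out libraries and a replicate block. SE is the log2 fold change over the root of F. No 2 replicates agreed within sampling noise (chi-square over degrees of freedom at least 4.09). In JJN3 same-numbered libraries deviated together (18 pairs, r 0.201 to 0.485), which, with titles giving the numbers, was taken as pairing. In MM1.S they did not by this rule (lowest r -0.05). 2 JJN3 labels name CX-5461 differently in 1 field, and the titles were followed.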

Additional observations from a re-analysis of the deposited data

Results flagged for a closer look

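3 differences between the lines were flagged because the difference of effects itself passed the edgeR test over 12872 genes. For CX-5461 against vehicle, JJN3 minus MM1.S was -1.85 on the log2 scale for PVT1, where 1.32% of all genes were called. For panobinostat added to CX-5461 the difference was -2.25 for MALAT1 and 2.51 for PVT1, where 32.3% of all genes were called. Passing the test was thus common in that contrast, and the MM1.S response to panobinostat was known when the members were chosen. Both PVT1 differences use the CX-5461 groups of the lines, with opposite sign, so they are not independent.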

How the results depend on the processing

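Numbers below are members called, and between the lines they cover the 5 members that passed the filter in both. With the replicate block they became 2 in MM1.S for CX-5461 against vehicle (MALAT1 added, edgeR adjusted p = 0.0140), beside 21.2% of all genes. In JJN3 they became 4, 2, 3 and 1 for panobinostat against vehicle, both drugs against vehicle, both against CX-5461 and both against panobinostat. Of all genes, 41.9%, 53.5%, 49% and 12.3% were called there, in that order. Between the lines the members called became 2 for the CX-5461 effect and 4 for adding panobinostat, beside 4.52% and 40.3% of all genes. With no filter on low counts the members called became 2 in MM1.S for CX-5461 against vehicle, beside 10.9% of all genes. They became 2, 3, 3 and 1 for the same JJN3 comparisons, beside 18%, 27.4%, 24.4% and 2.34% of all genes. Between the lines they became 3 for the CX-5461 effect and 3 for the vehicle groups (MALAT1 added), beside 1.47% and 40.7% of all genes. The cause was not tested. DESeq2 gave 1 for the departure from additivity in MM1.S, beside 5.64% of all genes. It gave 3 for adding panobinostat between the lines (TUG1 added), beside 33%. Leaving out 1 library gave 0 to 1 for the departure from additivity in MM1.S (NEAT1 without panobinostat replicate 1, -1.73, beside 8.46% of all genes). It gave 0 to 1 for panobinostat against vehicle and for both drugs against CX-5461 in JJN3. Of all genes, 16.8% to 26.1% and 24.9% to 36.2% were called in those fits. For both against CX-5461 in MM1.S, leaving out 1 library gave 5 to 6, beside 64.6% to 70.8% of all genes. For adding panobinostat between the lines, TUG1 was added without any 1 of 10 libraries, in fits that called 27.8% to 32.6% of all genes. All 4 JJN3 libraries numbered 1 were also left out together, an alternative chosen after seeing the data. The JJN3 numbers were then 0 for panobinostat against vehicle, 1 for both drugs against vehicle and 2 for both against CX-5461. Of all genes, 8.97%, 22% and 17.2% were called there, in that order. No called direction reversed under any alternative run, and 86 changes of sign concerned values called neither way. Library size alone moved the median of all genes for both drugs against vehicle in MM1.S to 0.24, against 0.06 with TMM, on the log2 scale. In MM1.S the numbers did not pair by the rule, though 12 of 12 libraries correlated best with their own number. PVT1 and KCNQ1OT1 in JJN3 are limited by depth.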
